A study of Mus musculus with 12 samples.

Results

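Cxcl9 and Cxcl10 encode secreted CXC chemokines that interferon induces and that share the receptor Cxcr3. Both genes were found by symbol in a deposited expression table of bone marrow plasmacytoid dendritic cells, where they are 2 of 21573 genes. Cxcl10 passed the minimum for testing and Cxcl9 did not. The cells came from BALB/c mice aged postnatal day 56 to 63. Cultures received 0.5 µM of an oligodeoxynucleotide for 24 h, of class A (CpG-A), B (CpG-B) or C (CpG-C). Control cells form the remaining group, and all cells were sorted before RNA extraction. Each of the 4 groups had 3 libraries, and the gate of the sort was not given in the sources used here. The labels do not say whether replicates are different animals, and p-values therefore cover the spread between these samples only, which may be technical. Levels are given in FPKM (fragments per kilobase, scaled to library size), a scale per length that allows genes to be compared.

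CXCR3 is a G protein-coupled receptor of activated T cells, natural killer cells and plasmacytoid dendritic cells, which move toward its ligands CXCL9, CXCL10 and CXCL11. Cxcl9 is known as a target mainly of interferon gamma. Cxcl10 also answers type I interferon and NF-kB, and so is induced in many cells that sense nucleic acids. Plasmacytoid dendritic cells detect CpG DNA through TLR9 and are known for making type I interferon.

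Both genes lie on the minus strand of mouse chromosome 5 on mm10, Cxcl9 (gene 17329) from 92321331 to 92328079 and Cxcl10 (gene 15945) from 92346638 to 92348889. Between them lie 18558 bases, and Cxcl11 (gene 56066, 92359534 to 92363277) starts 10644 bases beyond Cxcl10. GENCODE M21 gives Cxcl9 as a protein-coding transcript of 4 exons. For Cxcl10 it gives 2 protein-coding transcripts, with 4 and 3 exons. The 250 bases before each start site are shown as a description, and a link between their letters and the levels was not tested. They are RefSeq sequences on GRCm38.p6, read along the minus strand, from chr5:92328080-92328329 and chr5:92348890-92349139. Both of 2 symbols were matched in the RefSeq table. The capitals mark matches to any of 4 motifs searched on both strands, and the Cxcl9 stretch holds none.
Cxcl9: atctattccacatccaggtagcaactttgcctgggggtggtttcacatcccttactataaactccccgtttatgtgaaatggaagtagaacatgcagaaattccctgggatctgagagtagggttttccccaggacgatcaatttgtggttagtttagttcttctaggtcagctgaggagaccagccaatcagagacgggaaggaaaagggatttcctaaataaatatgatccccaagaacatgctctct
Cxcl10: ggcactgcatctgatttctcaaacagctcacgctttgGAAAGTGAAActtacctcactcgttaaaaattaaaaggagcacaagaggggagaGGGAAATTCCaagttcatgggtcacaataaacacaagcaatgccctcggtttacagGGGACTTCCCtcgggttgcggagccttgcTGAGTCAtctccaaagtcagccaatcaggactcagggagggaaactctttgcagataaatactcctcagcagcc
The motifs were the interferon-stimulated response element (GAAA, any 2 bases, GAAA), the kB site (GGGA, any 2 bases, T, any base, CC), the GAS element (TTCNNNGAA) and the AP-1 site (TGANTCA). The search window ran from 250 bases before to 50 bases after the start site.

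Cxcl10 had 4 matches in its window. The interferon-stimulated response element lay 213 to 204 bases upstream of the start site. The kB sites lay 159 to 150 and 103 to 94 bases upstream, and the AP-1 site 74 to 68 bases upstream. Cxcl9 had 1 match, an AP-1 site 31 to 37 bases downstream of the start site, beyond the stretch printed. Over 32851 promoters of the same length, 3.44% held the interferon-stimulated response element, 4.01% the kB site, 8.3% the GAS element and 7.81% the AP-1 site. Both of the first 2 motifs occurred together in 44 of them (0.134%), Cxcl10 included, a share given as a description and not as a test. These letters are those of the reference mouse strain, and a match is a description of the window, not a bound site. No GAS match in these windows says only that its exact letters do not occur there. The same holds for the kB site and the interferon-stimulated response element in the Cxcl9 window.

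**Figure D1:**
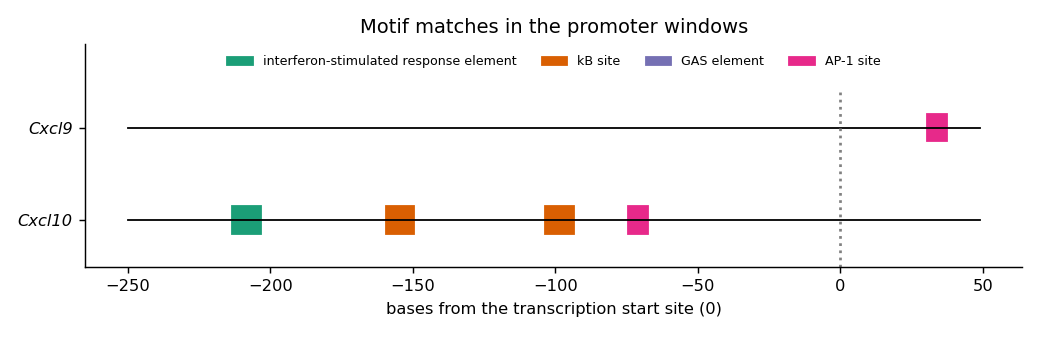
Motif matches in the promoter windows of Cxcl9 and Cxcl10. The horizontal axis gives bases from the transcription start site, and each coloured box is a match. Cxcl10 has 4, all upstream, and Cxcl9 has 1, downstream.

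Cxcl9 transcripts were at or near 0 in every group. The gene was listed at 0 in all 3 CpG-A and all 3 CpG-B libraries. With CpG-C it stood at 0, 0.03 and 0 FPKM in replicates 1, 2 and 3, and in control at 0.03, 0.01 and 0 FPKM. The highest value of any library was thus 0.03 FPKM, and the groups overlapped. The lowest value above 0 among 2139 known genes of a like transcript length was 0.01 FPKM in every library, so the few Cxcl9 values above 0 sat at the low end of the scale. Of 17590 known genes, 1961 (11.1%) likewise had no value above 0.03 FPKM in any library. Cxcl9 did not reach the minimum of 1 FPKM in 3 libraries and was not tested. No fold is given, since 2 groups were at 0.

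An entry of 0 in this table is not by itself proof of absence. None of 12 housekeeping genes looked up was listed at 0 in a library. Of 4865 genes with a median of at least 10 FPKM, however, 4 (CpG-B replicate 3) to 198 (CpG-A replicate 1) were listed at 0 in a library. For Cxcl9 all 12 libraries lay between 0 and 0.03 FPKM. Read numbers are not part of the table, so no counting limit can be set on these entries.

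Cxcl10 transcripts were low in control and abundant with every class. In control they stood at 0.13, 0.12 and 0.42 FPKM. With CpG-A they reached 332, 205 and 465 FPKM, and with CpG-B 631, 404 and 588 FPKM. With CpG-C they reached 554, 49.3 and 124 FPKM. Every CpG library lay above every control library, and the lowest of the 9 CpG values was 49.3 FPKM. CpG-C had the widest spread, with replicate 1 among the high CpG-B values and replicate 2 the lowest of the CpG libraries. In bulk samples, fewer cells of a type and less RNA per cell cannot be told apart.

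**Figure D2:**
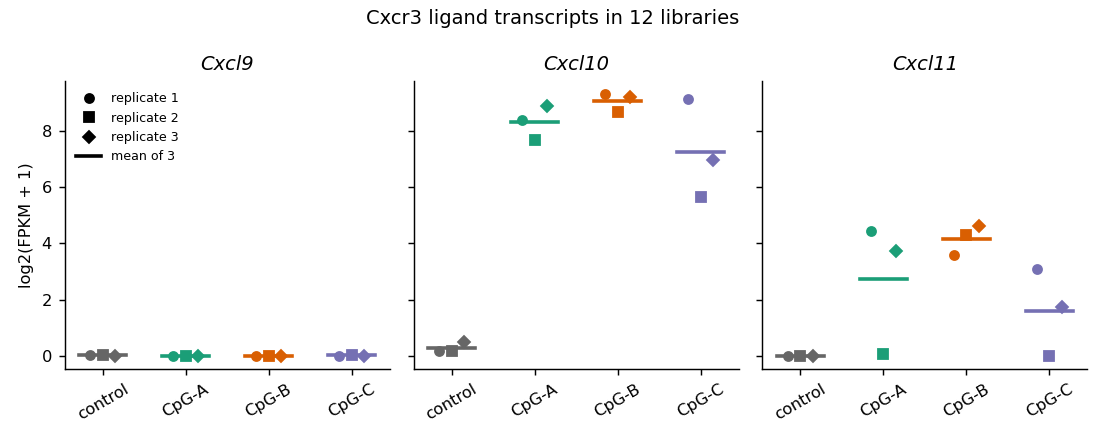
Levels of the Cxcr3 ligand transcripts as log2(FPKM + 1) in each of the 12 libraries, by group; symbols are replicates and lines the mean of 3. Cxcl9 stays at the bottom of the scale, Cxcl10 is high in all 9 CpG libraries, and Cxcl11 is lower than Cxcl10 and at or near 0 in 1 CpG-A and 1 CpG-C library.

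On the log2(FPKM + 1) scale Cxcl10 rose with CpG-A by 8.03 (SE 0.67, 95% interval 6.60 to 9.46, limma adjusted p = 2.26e-05). It rose with CpG-B by 8.77 (interval 7.34 to 10.2, limma adjusted p = 2.97e-06). It rose with CpG-C by 6.96 (interval 5.53 to 8.39, limma adjusted p = 3.99e-05). Group means were 334 ± 130, 541 ± 121 and 243 ± 273 FPKM with CpG-A, CpG-B and CpG-C and 0.223 ± 0.17 in control (SD, n = 3 each). Among all 11641 genes tested, 1.47% were called changed with CpG-A, 5.75% with CpG-B and 1.86% with CpG-C. Genes higher in every treated than in every control library made up 5.78%, 10.1% and 6.64% of those tested. The 3 comparisons share the same control samples, so their likeness is no separate evidence.

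These differences understate the change, since the added 1 exceeds every control value. With 0.01 added they were up to 10.6, 11.4 and 9.56 for CpG-A, CpG-B and CpG-C. With 5 added they were 5.95, 6.68 and 4.92. The rise was called in all 24 alternatives tried for each class.

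By level, Cxcl10 moved from the middle of the table to near its top. Among known genes ordered from the highest level, its rank was 8569 to 9733 in control. With CpG-A its rank was 313 to 587, with CpG-B 255 to 372 and with CpG-C 264 to 1745. At its lowest, in CpG-C replicate 2, 90.1% of known genes were still lower.

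The classes were also compared with each other at the shared dose and time. Cxcl10 values of the classes overlapped in all 3 pairs, and no pair was called. The CpG-A minus CpG-B difference was -0.75 (95% interval -2.18 to 0.69, limma adjusted p = 0.696). The CpG-A minus CpG-C difference was 1.07 (-0.36 to 2.50, limma adjusted p = 1). Over all genes tested, 2.43% were called between CpG-A and CpG-B and 0.00% between CpG-A and CpG-C, where limma gave 467 genes at an unadjusted p under 0.05. Intervals this wide do not show that the classes act alike.

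CpG-B minus CpG-C was the widest gap, 1.81 (95% interval 0.38 to 3.24, limma adjusted p = 0.262, unadjusted p = 0.0165), against 1.35% of genes called. Without CpG-C replicate 1 the difference was 2.75 and was called (limma adjusted p = 0.0289). With libraries weighted by their own scatter it was 2.28, also called (limma adjusted p = 0.0194). In order of mean level the classes ran CpG-B, CpG-A, CpG-C, and no neighbours in that order were called different.

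**Figure D3:**
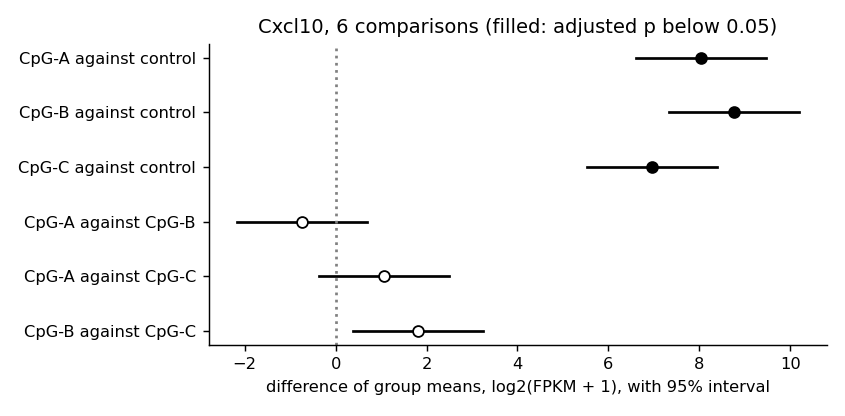
Differences of group means for Cxcl10 on the log2(FPKM + 1) scale in 6 comparisons, with 95% intervals from limma. The 3 comparisons with control lie between 6.96 and 8.77 and are called (filled), and the 3 pairs of classes lie between -0.75 and 1.81 and are not called (open).

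Whether the classes raised Cxcl10 and Cxcl9 in different proportion was tested on the ratio of the levels within each library, (Cxcl10 + 1)/(Cxcl9 + 1) in FPKM. The log2 ratio was 8.31 ± 0.592 with CpG-A, 9.06 ± 0.345 with CpG-B and 7.23 ± 1.77 with CpG-C (SD, n = 3 each). A two-sided exact permutation test over 1680 assignments of the 9 libraries gave p = 0.168. Without CpG-C replicate 1 the exact permutation p was 0.00714 over 560 assignments. With Cxcl9 at most 0.03 FPKM the ratio carries little beyond the Cxcl10 level.

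Cxcl11, the ligand with the highest affinity for Cxcr3, was listed at 0 in all 3 control libraries. It stood at 20.9, 0.05 and 12.2 FPKM with CpG-A, at 11.1, 18.8 and 23.4 FPKM with CpG-B, and at 7.56, 0 and 2.31 FPKM with CpG-C. The CpG-B libraries were all above the CpG-C libraries, as in 9.20% of genes tested, while CpG-A overlapped both. Only CpG-B was called against control among the 3 classes (limma adjusted p = 0.0372 with CpG-B, 0.304 with CpG-A and 0.583 with CpG-C), and CpG-B against CpG-C was not (0.358). The CpG-B call was lost in 9 of 24 alternatives, among them leaving out any 1 CpG-B library, any 1 control library or CpG-C replicate 3, with limma adjusted p up to 0.134. Both levels being per length, Cxcl11 stood at 6.29%, 0.0244% and 2.62% of Cxcl10 in the CpG-A libraries. It stood at 1.76%, 4.64% and 3.98% with CpG-B and at 1.36%, 0% and 1.87% with CpG-C.

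Around the ligand cluster, a window of 500000 bases on either side held 17 other genes, 14 of them known genes, and 8 were tested. Sdad1 is the nearest tested gene beyond Cxcl9 and was not called. Besides the ligands, the sole call against control was Rchy1, a ubiquitin ligase gene. It stood at 2.58, 3.1 and 23.7 FPKM with CpG-B and at 40.6, 52.3 and 50.3 FPKM in control, and fell by 2.76 on the log2 scale (limma adjusted p = 0.0453). That call was lost in 17 of 24 alternatives, among them without CpG-A replicate 3, any 1 control library, CpG-B replicates 1 or 2, or CpG-C replicates 2 or 3, with limma adjusted p up to 0.182. Art3, on the opposite strand, spans Cxcl10 and Cxcl11 and stood at 0 to 1.44 FPKM. Whether the counting used strand was not given in the sources used here, so reads of Art3 and of the ligands cannot be told apart by strand.

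**Figure D4:**
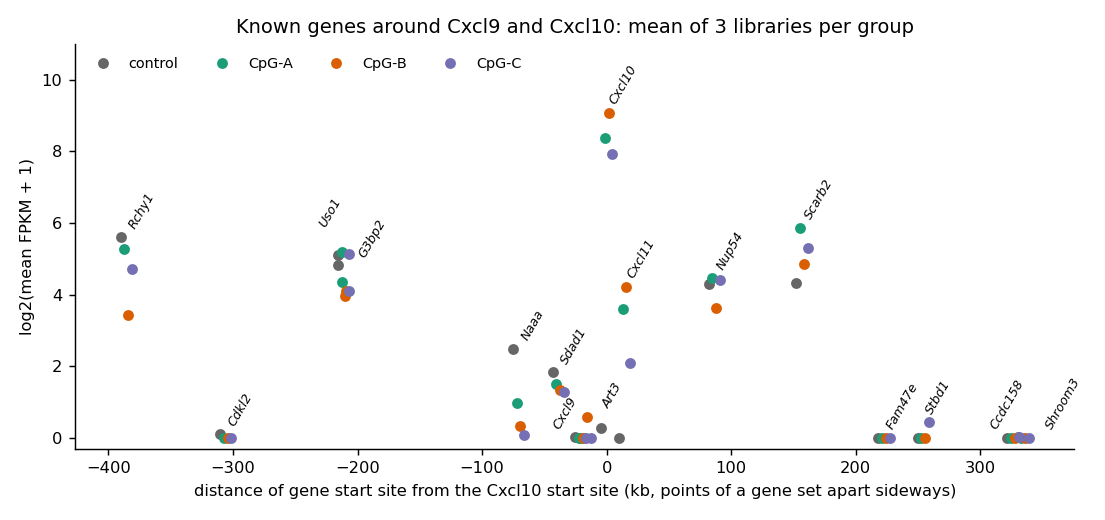
Mean level of the known genes within 500000 bases of Cxcl9 and Cxcl10, as log2(mean FPKM + 1), against the distance of their start sites from that of Cxcl10 in kb; colours are the 4 groups of 3 libraries. Cxcl10 has the highest means in the treated groups, Cxcl11 is above 0 in the treated groups only, and Cxcl9 and Art3 lie near 0.

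The receptor Cxcr3 stood at 69.3, 28.1 and 69.1 FPKM in control. With CpG-B it stood at 0.16, 0.08 and 1.86 FPKM, below every control library, as in 15.6% of genes tested. With CpG-A it was listed at 0, 28.2 and 36.1 FPKM, and with CpG-C at 0.06, 30.3 and 32.1 FPKM, with replicate 1 of both classes far below the others. Of all 12 libraries, CpG-A replicate 1 and CpG-C replicate 1 had the fewest genes at 1 FPKM or more (7437 and 7971). By genes above 0, CpG-A replicate 1 was also lowest (11980), while CpG-C replicate 1 stood at 13372. A link of these counts to the Cxcr3 values was not tested. Cxcr3 fell with CpG-B by 5.10 on the log2(FPKM + 1) scale (SE 1.41, limma adjusted p = 0.0459). The call was lost in 14 of 24 alternatives, including without any 1 CpG-B or any 1 control library, CpG-A replicate 2 or CpG-C replicate 3 (limma adjusted p up to 0.238). The differences with CpG-A (-2.35, limma adjusted p = 0.514) and CpG-C (-2.34, 0.523) were not called, nor was any pair of classes.

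Dpp4, the protease that trims the amino terminus of Cxcr3 ligands, stood between 1.5 and 19.2 FPKM over the 12 libraries and was not called in any comparison. Ackr3, a scavenger receptor of CXCL11, was at most 0.02 FPKM and was not tested. Of the 11 axis genes other than the members, which cover Cxcl11, receptors, G proteins, arrestins and their regulators, 9 were tested. With CpG-B 2 rose (Cxcl11 and Rgs1) and 2 fell (Cxcr3 and Rgs2), beside 3.26% higher and 2.48% lower of all genes. With CpG-C 1 rose (Rgs1), beside 1.34% higher, and with CpG-A none was called, beside 1.47% called of all genes. Rgs1 and Rgs2 encode regulators that shorten G protein signalling. Rgs1 averaged 17.4 FPKM in control, 267 with CpG-B and 107 with CpG-C, and Rgs2 averaged 42.4 FPKM in control and 5.76 with CpG-B. The Rgs2 call was lost without any 1 CpG-B or control library (limma adjusted p up to 0.0844), and the Rgs1 call with CpG-C without CpG-C replicate 1 or control replicate 2 or 3 (up to 0.0701). The median log2 difference of the axis was -0.11, -0.89 and -0.78 with CpG-A, CpG-B and CpG-C, beside -0.27, -0.25 and -0.22 over all genes tested.

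Of the other CXC chemokine genes, 5 were in the table and 1, Cxcl16, was tested. Cxcl16 stood at 1.04, 32.1 and 8.13 FPKM with CpG-B and at most 0.23 FPKM in control, and was not called (limma adjusted p = 0.128). Cxcl5, Cxcl12, Cxcl14 and Cxcl17 were at most 2.72 FPKM in any library. Cxcl10 was higher than each of these and than the other Cxcr3 ligands in each of the 9 CpG libraries.

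Among the interferons that induce these ligands, Ifng, the type II interferon, stood at 0.14, 0.08 and 0.1 FPKM in control. With CpG-A it stood at 136, 11.8 and 14.3 FPKM, with CpG-B at 315, 52.9 and 52.0 FPKM, and with CpG-C at 0.15, 17.8 and 0 FPKM. All CpG-A and CpG-B libraries lay above control, while CpG-C overlapped it. Ifng rose with CpG-B by 6.45 (SE 1.19, limma adjusted p = 0.00421), and was not called with CpG-A (4.76, adjusted p = 0.0643) or CpG-C (1.33, adjusted p = 0.691). Without CpG-C replicate 2, CpG-A was called (limma adjusted p = 0.0268). CpG-B exceeded CpG-C by 5.12 (limma adjusted p = 0.0489), a call lost in 18 of 24 alternatives, among them without any 1 CpG-B or control library, CpG-C replicate 1 or 3, or CpG-A replicate 2 or 3 (adjusted p up to 0.306). Cxcl9 was listed at 0 in all 3 CpG-B libraries and in CpG-A replicate 1, the libraries with the most Ifng. Cxcl9 was also at 0 in CpG-C replicates 1 and 3 and control replicate 3, with Ifng at 0.15, 0 and 0.1 FPKM.

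Ifng is also a natural killer cell transcript, and some other transcripts of that cell type were also called higher. All 12 genes of a natural killer list were tested. With CpG-B 5 rose, Ncr1, Prf1, Gzmb, Klrk1 and Ifng itself, with CpG-C 2 (Gzmb and Ncr1) and with CpG-A 1 (Ncr1), beside 3.26%, 1.34% and 1.05% of all genes tested called higher with these classes. The summed level of the 12 genes was 56.2 to 779 FPKM in control, 453 to 995 with CpG-A, 1803 to 6120 with CpG-B and 503 to 995 with CpG-C. Gzma, not called against control, alone stood at 4002 FPKM in CpG-B replicate 2 and 266 FPKM in control replicate 1. In CpG-C replicate 1 Ifng stood at 0.15 FPKM and Gzmb at 395 FPKM. Ncr1 and Gzmb were below 1 FPKM in all control libraries and Klra8 in all CpG-A and CpG-B libraries. The part of such cells in the Ifng values was not tested.

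Ifnb1, the type I interferon beta, stood at 3.23, 1.54 and 0.87 FPKM in control. With CpG-A it stood at 8054, 4.55 and 229 FPKM, with CpG-B at 535, 120 and 104 FPKM, and with CpG-C at 3405, 189 and 1074 FPKM. Every CpG library lay above control, but CpG-A replicate 2 lay close to it, while Cxcl10 reached 205 FPKM there. Ifnb1 rose with CpG-C by 8.35 (limma adjusted p = 0.0242), a call lost in 7 of 24 alternatives (adjusted p up to 0.228), among them without CpG-C replicate 1, CpG-C replicate 3 or any 1 control library. It was not called with CpG-A (6.32, adjusted p = 0.104) or CpG-B (6.12, adjusted p = 0.06). With the replicate number as a block in the fit, Ifnb1 was called with CpG-A (limma adjusted p = 0.0235) and CpG-B (0.0119). Without CpG-A replicate 2 it was called with CpG-A (8.97, limma adjusted p = 0.00273) and with CpG-B (adjusted p = 0.00669). The CpG-B call was also made without CpG-A replicate 1 (limma adjusted p = 0.00697). In all, 2 of 24 alternatives gave a call with CpG-A and 7 of 24 with CpG-B. The latter included only the groups compared in the fit (limma adjusted p = 0.00261) and libraries weighted by their own scatter (0.0108). The table held 18 interferon genes, of which 13 were tested, and 2 rose with CpG-A (Ifna9 and Ifna12), 1 with CpG-B (Ifng) and 2 with CpG-C (Ifna9 and Ifnb1), where 1.05%, 3.26% and 1.34% of all genes were called higher. Most of the 13 were near 0 in control and reached the minimum for testing through CpG libraries, so neither these counts nor a median describes interferon genes as a whole. The Ifna9 call with CpG-C was lost without CpG-C replicate 1 or 2 (limma adjusted p up to 0.0709). Interferon alpha genes are near-identical copies, so how reads were split among them is uncertain.

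Among 7 interferon regulatory factors tested, Irf7, a factor that interferon induces and that drives interferon alpha genes, rose with CpG-A by 3.27 (limma adjusted p = 0.0107) and with CpG-C by 3.23 (adjusted p = 0.0117). With CpG-B the difference was 2.13 (limma adjusted p = 0.0583), called without control replicate 3 (0.0078). It was also called with the replicate number as a block in the fit (limma adjusted p = 0.00514). Leaving out CpG-A replicate 3 ended the CpG-A call (limma adjusted p = 0.0595), and leaving out CpG-C replicate 3 the CpG-C call (0.0658). Irf8, a factor that defines dendritic cell lineages, fell with CpG-B by 2.77 (adjusted p = 0.00646), from 527 to 98.1 FPKM on average. Irf8 was also lower with CpG-B than with CpG-A (adjusted p = 0.0113) and CpG-C (0.0159). The first of these was lost without CpG-B replicate 1 (limma adjusted p = 0.0561) and the second without any 1 of CpG-B replicates 1 and 2 and CpG-C replicates 2 and 3 (up to 0.0936). Irf1, which acts at interferon response elements, was not called with any class (1.54, 0.10 and 0.73, limma adjusted p = 0.167, 0.944 and 0.58).

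Of 21 tested genes of the TLR9 and NF-kB route, 1 rose with CpG-A, 2 with CpG-B and 1 with CpG-C, and none fell. Of all genes tested, 1.05%, 3.26% and 1.34% were called higher with these classes. Nfkbiz, encoding an NF-kB cofactor, rose with CpG-B by 3.06 (limma adjusted p = 0.00355) and CpG-C by 2.76 (adjusted p = 0.0158). Nfkbia, the NF-kB inhibitor that NF-kB itself induces, rose with CpG-B by 3.68 (adjusted p = 0.00457), and Relb, an NF-kB subunit, with CpG-A by 2.85 (adjusted p = 0.0455). The Nfkbiz call with CpG-C was lost without CpG-C replicate 1 or 3 or control replicate 2 (adjusted p up to 0.0983), and the Relb call in 17 of 24 alternatives, among them without any 1 library except CpG-C replicate 1 (up to 0.216). The median difference of the route was 0.17, 0.08 and 0.51 with CpG-A, CpG-B and CpG-C, beside -0.27, -0.25 and -0.22 over all genes tested.

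**Figure D5:**
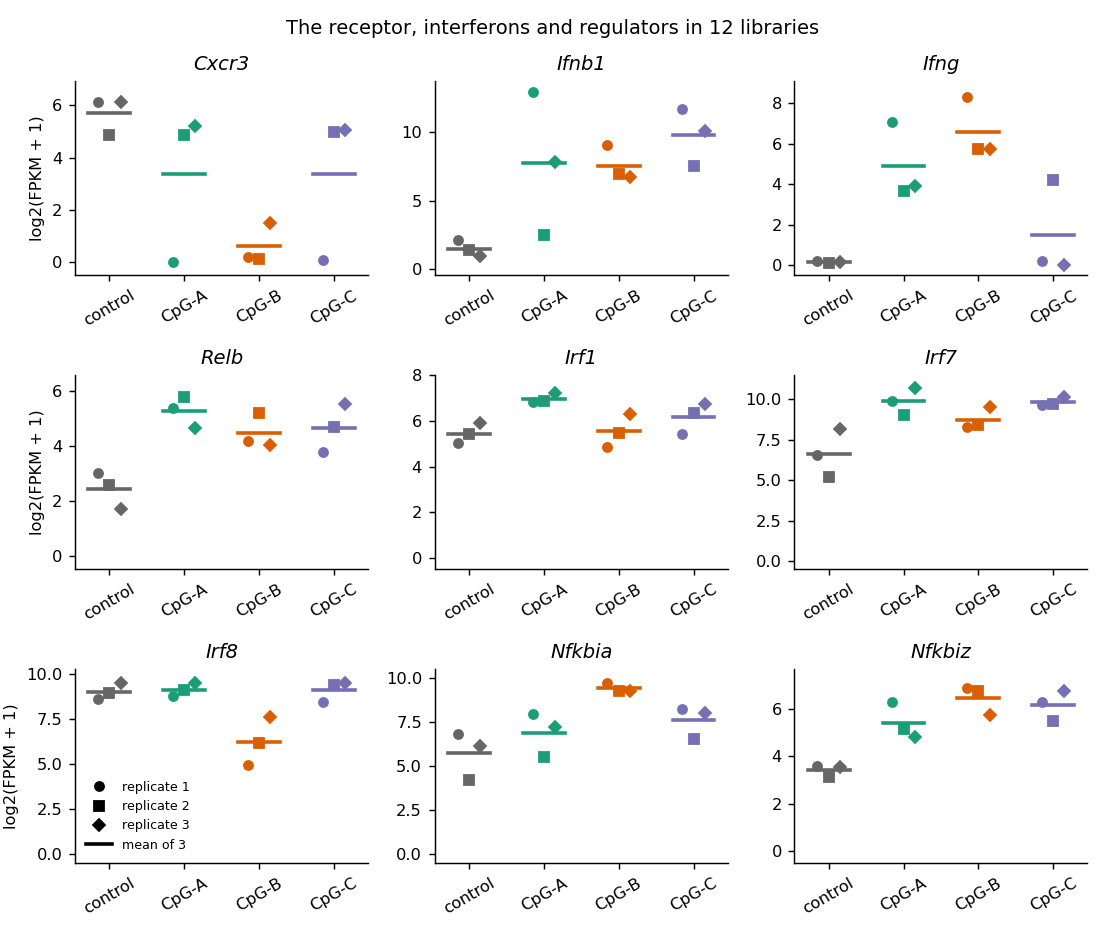
Levels of the receptor, interferons and regulators as log2(FPKM + 1) in each library, by group, with symbols for replicates and lines for the mean of 3; each panel has its own vertical scale. Cxcr3 and Irf8 are low with CpG-B, Ifng is high with CpG-B, and Ifnb1 is above control in all 9 CpG libraries.

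A further list gathers other genes that interferon gamma is known to induce alongside Cxcl9. Its genes in the table numbered 10, and 8 were tested. With CpG-B 5 rose, Gbp2, Socs1, Cd274, Serpina3g and Ido1, with CpG-A 1 (Socs1) and with CpG-C 0, beside the 3.26%, 1.05% and 1.34% of all genes that were called higher. Some of these genes also reached the minimum for testing through CpG libraries. Gbp2, an interferon-induced GTPase, averaged 149 FPKM with CpG-B and 1.4 in control (difference 6.24, limma adjusted p = 0.000583). Cd274, encoding the checkpoint ligand PD-L1, averaged 56.5 and 3.27 FPKM (3.83, adjusted p = 0.00207). Ido1, a tryptophan-degrading enzyme gene, averaged 181 and 14.1 FPKM (3.61, adjusted p = 0.0348). Leaving out any 1 control library, or either of CpG-B replicates 2 and 3, lowered the CpG-B count to 2. It was 3 with CpG-B replicate 1 left out and 4 with CpG-C replicate 2 left out. Calls of Gbp2 and Cd274 were kept in each of these. Cxcl9 was at 0 in the same CpG-B libraries, and also in every CpG-A library.

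Of a list of genes of interferon feedback and of message turnover, 14 were tested. Usp18, which blocks the type I interferon receptor, rose with all 3 classes, by 4.68, 4.43 and 4.56 (limma adjusted p at most 0.000718). With only the groups compared in the fit, its adjusted p was 0.098 with CpG-A and 0.0606 with CpG-C. Socs1, an inhibitor of JAK kinases, rose with CpG-A and CpG-B, calls lost without any 1 control library (limma adjusted p up to 0.0709), CpG-A replicate 1 or 3 (up to 0.106), and CpG-B replicate 2 or 3 (up to 0.13). With CpG-B 2 of the 14 genes rose (Usp18 and Socs1), beside 3.26% of all genes, and 2 fell, beside 2.48%. The genes that fell were Zfp36l1 (-3.18, adjusted p = 0.0316) and Zfp36l2 (-3.15, adjusted p = 0.0109), whose proteins bind AU-rich messages and speed their decay. The Zfp36l1 call was lost when control replicate 2 or 3, or CpG-B replicate 1 or 2, was left out (limma adjusted p up to 0.137).

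The known genes whose pattern over the 12 libraries was closest to that of Cxcl10 were Ifit3, Cd40, Bcl2a1d, Isg20 and Phf11d. The mean absolute difference between centred log2(FPKM + 1) values was 0.6, 0.73, 0.877, 0.916 and 0.951. Ifit3 and Isg20 are interferon-induced antiviral genes, Cd40 encodes a co-stimulatory receptor and Bcl2a1d a survival factor with near-identical copies. Ifit3 stood at 0.09 to 1.74 FPKM in control and at 213 to 651 FPKM with CpG. They were chosen for this likeness, so their own rise with CpG is no separate result. RefSeq promoters were found for 4 of the 5, of which 1 (Ifit3) held an interferon-stimulated response element and 0 a kB site in the same window. For Cxcl9 the same measure returned the flattest tested genes, Rpl36al, Ndufb3, Ndufb8, Lamtor5 and Atp5j2, at 0.13 to 0.149, since its values barely move.

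Over the whole table, 7437 to 10622 genes per library reached 1 FPKM. All 17 plasmacytoid dendritic cell markers reached 1 FPKM in every group, and 6 of them (Cox6a2, Siglech, Irf8, Spib, Tcf4 and Runx2) fell with CpG-B, where 2.48% of all genes did. Cells other than these are known as strong sources of Cxcl9, macrophages above all. Of 15 macrophage and monocyte markers in the table, 4 reached 1 FPKM in a control library, 5 with CpG-A, 8 with CpG-B and 5 with CpG-C. Csf1r, Adgre1, Mertk, Mrc1 and Vcam1 were below 1 FPKM in every library. Cd68 stood at 167 to 777 FPKM over the 12 libraries, Ccr2 at 0.02 to 480 FPKM with its highest value in control, and Cd14 at 0 to 30.5 FPKM. C1qb reached 20.7 FPKM and Lyz2 3.28 FPKM, both in CpG-B replicate 3. The summed level of that list was 4333 to 6157 FPKM in control, 12904 to 15978 with CpG-A, 5543 to 9870 with CpG-B and 10176 to 17734 with CpG-C. Ly6c1, which rose with CpG-A and CpG-C, made up most of it, with means of 4225 FPKM in control and 14176, 7561 and 13588 with CpG-A, CpG-B and CpG-C. Ly6c1 is listed at the same chromosome span as Ly6c2, a gene of the plasmacytoid dendritic cell list. That sum therefore need not stand for monocytes or macrophages, and no marker level here says which cells held the transcript. Of 10 T cell markers in the table, 8 reached 1 FPKM in control, with CpG-A and with CpG-B, and 6 with CpG-C. Cd4 reached 224 FPKM, Cd8b1 206, Cd28 78.0, Cd3g 40.9 and Cd3d 34.6 in their highest libraries, while Cd3e and Bcl11b were below 1 FPKM throughout. The summed level of these markers was 147 to 209 FPKM in control, 80.9 to 220 with CpG-A, 90.0 to 241 with CpG-B and 43.9 to 305 with CpG-C. Of 14 conventional dendritic cell markers in the table, 10 reached 1 FPKM in control, 10 with CpG-A, 9 with CpG-B and 12 with CpG-C. Their sum was 640 to 972 FPKM in control, 266 to 522 with CpG-A, 434 to 503 with CpG-B and 392 to 566 with CpG-C. With CpG-B 2 of 11 tested rose (Cd8a and Batf3) and 3 fell (Sirpa, Cadm1 and Cd209a), beside 3.26% and 2.48% of all genes. Cd209a also fell with CpG-A and CpG-C. The part of any other cell type in the Cxcl10 values was not tested.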

How the data were processed

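RNA-seq of sorted cells gave 1 gene table. Its FPKM values, deposited by the authors with 1 column per library and rounded to 2 decimals, have an order of steps not given in the sources used here. Build mm10, RSEM 1.2.8, StringTie, HISAT, GATK and Bowtie2 2.2.5 are listed in the submitters' processing notes. The authors' deposited log2 ratios, p-values and q-values between groups entered no test. Of 21574 lines 1 was broken and left out. Columns of other samples numbered 0. Reads per library are not given, so depth is unknown and no counting interval was set.

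The scale of every test was log2(FPKM + 1). A gene entered at 1 FPKM or more in 3 or more libraries (11641 genes). The 4 group means were estimated from all 12 libraries together with limma 3.58.1 under R 4.3.3, using its mean-variance trend. Its p-values were adjusted (Benjamini-Hochberg) across the 11641 genes and called below 0.05. The fit was tested on simulated data. Cxcl9 fell below the minimum, so its planned tests were not made. Permuting 3 against 3 libraries would give no p below 0.1.

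Members and lists were chosen with earlier results of these data known. Named besides the members are a fixed set of axis and regulator genes, up to 4 called genes per list by size, the 5 genes nearest each member in pattern, and called or nearest neighbours on the chromosome. Marker genes, Art3 and the CXC chemokines outside this rule were named after their values were seen. Alternatives covered the added constant, filter, scaling, samples in the fit, trend, library weights, replicate block and leaving out libraries. Some genes of these lists are not reported here.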

Additional observations from a re-analysis of the deposited data

How the results depend on the processing

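The rise of Cxcl10 against control was called in all 24 alternatives for each class. Leaving out 1 library gave 7.75 to 8.34 with CpG-A, 8.65 to 8.97 with CpG-B and 6.03 to 7.76 with CpG-C, the last without CpG-C replicates 1 and 2. The highest limma adjusted p over all alternatives was 0.0124, 0.000523 and 0.0248. Between CpG-B and CpG-C the Cxcl10 difference was called with library weights (2.28) and, with 1 library left out, ranged from 1.02 to 2.75. Between CpG-A and CpG-B it ranged from -1.02 to -0.43 and between CpG-A and CpG-C from 0.27 to 2.0, never called. The exact permutation p of the ligand ratio among classes was 0.00714 to 0.389 with 1 library left out. For Cxcl9, limma without a filter gave adjusted p = 0.719, 0.604 and 1 against control. Leaving out 1 library, Ifng with CpG-C ranged from -0.045 (CpG-C replicate 2) to 2.07, and Irf1 with CpG-B from -0.28 (CpG-B replicate 3) to 0.44, being -0.12 with control replicate 1 left out. The cause was not tested.

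Counts of called genes moved by over 1.5 times. Higher and lower genes numbered 17 to 191 and 2 to 94 with CpG-A (122 and 49 as reported), 214 to 535 and 129 to 528 with CpG-B (380 and 289), and 64 to 253 and 14 to 153 with CpG-C (156 and 61). Between classes they were 27 to 215 and 34 to 294 for CpG-A against CpG-B (115 and 168), and 16 to 330 and 6 to 257 for CpG-B against CpG-C (91 and 66). Median-of-ratios scaling shifted the all-gene median by 0.157, 0.256 and 0.147 against control, and no Cxcl10 call changed with it. Same-numbered libraries correlated at 0.0607 to 0.17 over 18 pairs, 11 of them above 0.1, and libraries of different number at -0.131 to 0.029. Every same-number value lay above every different-number value, and 12 of 12 libraries correlated best with their own number. The labels do not say what a number shares. The reported fit used no block, so its calls leave this pairing out. With a replicate block the Cxcl10 differences were 8.03, 8.77 and 6.96 (limma adjusted p = 1.72e-05, 3.03e-06 and 2.99e-05) and no Cxcl10 call changed. The block gave 191 higher and 94 lower genes with CpG-A, and calls for Ifnb1 with CpG-A (adjusted p = 0.0235) and CpG-B (0.0119) and Irf7 with CpG-B (0.00514).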

Other observations

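The authors' deposited table gives log2 ratios of Cxcl10 to control of 10.5 for CpG-A, 11.1 for CpG-B and 9.97 for CpG-C, each with a q-value listed as 0. Between classes the authors' deposited table gives 0.683 for CpG-B over CpG-A, -0.491 for CpG-C over CpG-A and -1.17 for CpG-C over CpG-B. Its q-value for CpG-A against CpG-C is 5.1e-262. The limma fit on the 12 libraries called none of these class pairs for Cxcl10. For Cxcl9 the authors' deposited table holds CpG-C over control, -0.619 with a q-value of 0.182. The test behind these q-values is not given in the sources used here.

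CpG-C replicate 1 combined a Cxcl10 level of 554 FPKM with Ifng at 0.15 FPKM and Ifnb1 at 3405 FPKM. CpG-C replicate 2 had Ifng at 17.8 FPKM and the lowest Cxcl10 of the CpG libraries, 49.3 FPKM. CpG-A replicate 2 had Ifnb1 at 4.55 FPKM and Cxcl10 at 205 FPKM.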
